A study of Mus musculus with 16 samples.

Results

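The genes described here are 37 mouse genes of glucose use and of the response to low oxygen. They were chosen by name and function out of 48795 gene identifiers counted, with earlier results of these data known. Of them 23 stand for glucose transport and glycolysis and 14 for the regulators and targets of the hypoxia response. Each of the 37 matched 1 identifier in the count table. The libraries were RNA-seq libraries of cells sorted from digested livers of mice aged 4 weeks, each made from RNA pooled over 6 to 8 mice with males and females in equal number. Wild type mice and mice labelled Ift88Orpk, which carry a hypomorphic insertion allele of the intraflagellar transport gene Ift88 in every cell, were compared on a C57BL/6 and on a BALB/c background, and no treatment was named for any group. From each of these 4 combinations of strain and genotype came 4 populations: Ly6Chi infiltrating macrophages, Ly6Clo infiltrating macrophages, neutrophils, and cells sorted with the lectin DBA and labelled cholangiocytes. This gave 16 groups with 1 library each.

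Glycolysis splits glucose into pyruvate in the cytosol, and lactate dehydrogenase and a lactate transporter allow it to run without oxygen. When oxygen is short, the prolyl hydroxylases encoded by Egln1 and Egln3 stop marking the HIF alpha subunits (Hif1a and Epas1) for destruction. The subunits then pair with ARNT and switch on glycolytic enzymes, the angiogenic factor Vegfa and mitophagy genes at promoters and enhancers that hold an RCGTG core. Neutrophils and activated macrophages depend heavily on glycolysis, and HIF1 alpha is required for their function in mice. EPAS1, also called HIF2 alpha, is best known from endothelium.

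Levels are given in CPM, which express a gene's count relative to the library's total after TMM scaling, and 10170795 to 26093556 counts per library fell in genes. The sorted populations were checked against marker lists. The 4 DBA-sorted libraries held 16090 ± 2852 CPM (mean ± SD, n = 4) of 11 sinusoidal endothelial markers and 1265 ± 376 CPM of 12 cholangiocyte markers, so they are called DBA-sorted cells here. The neutrophil libraries held 23400 ± 4842 CPM of 12 neutrophil markers, against 985 ± 499 CPM in Ly6Chi and 1014 ± 592 CPM in Ly6Clo macrophages. Ift88 itself was counted in every library, at 1.44 to 8.78 CPM. It was lower in Ift88Orpk in both DBA pairs and higher in the 6 leukocyte pairs, and a total per gene cannot tell the insertion allele's transcripts from intact ones. Xist was lower and Ddx3y higher in the Ift88Orpk library of all 4 C57BL/6 pairs (in DBA-sorted cells 842 and 240 CPM for Xist, 22.5 and 62.9 CPM for Ddx3y), which goes against an equal balance of sexes. In BALB/c Xist was higher in Ift88Orpk in DBA-sorted cells (173 and 655 CPM), Ly6Chi macrophages (136 and 474 CPM) and Ly6Clo macrophages (190 and 773 CPM), and was at 192 and 181 CPM in neutrophils. Ddx3y was lower in Ift88Orpk in BALB/c DBA-sorted cells (35.6 and 31.3 CPM) and Ly6Clo macrophages (98.1 and 49.0 CPM) and higher in the other BALB/c pairs. Mitochondrial genes took a smaller share of counts in Ift88Orpk in all 6 leukocyte pairs (in BALB/c neutrophils 11.0% in wild type and 3.15% in Ift88Orpk). In bulk libraries of sorted cells, fewer cells of a type and less RNA per cell cannot be told apart.

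RefSeq promoter windows (GRCm38.p6, 250 bases before to 50 bases after a start) were at hand for 33 of the 37 genes. A hypoxia response core, ACGTG or GCGTG on either strand, stood in the window of 25 of these 33 genes (75.8%), and in 43.8% of all 32851 windows. ACGTG alone was in 57.6% of the genes' windows against 19.6% of all windows, and GCGTG in 51.5% against 32.4%. Each of the 33 genes entered with a single window, the one nearest its annotated start. The 32851 windows hold several for some genes, so the units of the shares differ. Of 9 genes whose levels were higher in Ift88Orpk in every strain and population, as described further on, the windows of 5 are shown, to cover glucose uptake, enzymes, an oxygen sensor and a secreted factor. Of the 4 not shown, the windows of Pfkp and Gapdh held 4 and 3 matches and those of Aldoa and Tpi1 none. Capitals mark each core as read on the printed strand, so CACGT and CACGC are matches on the opposite strand and CACGTG holds a match on both. Slc2a1 (chr4:119108495-119108794, plus strand) encodes the glucose transporter GLUT1, Pgk1 (chrX:106186850-106187149, plus strand) phosphoglycerate kinase, and Ldha (chr7:46845554-46845853, plus strand) a lactate dehydrogenase subunit. Egln1 (chr8:124949205-124949504, minus strand) encodes the oxygen sensor PHD2 and Vegfa (chr17:46032328-46032627, minus strand) vascular endothelial growth factor A. The Ldha window lies 4329 bases from the start of the gene in the GENCODE annotation.
Slc2a1: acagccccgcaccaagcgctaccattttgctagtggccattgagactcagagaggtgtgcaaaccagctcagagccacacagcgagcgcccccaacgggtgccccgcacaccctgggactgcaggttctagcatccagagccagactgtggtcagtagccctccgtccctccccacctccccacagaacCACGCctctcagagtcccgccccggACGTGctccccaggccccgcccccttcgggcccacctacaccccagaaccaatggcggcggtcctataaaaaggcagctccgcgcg
Pgk1: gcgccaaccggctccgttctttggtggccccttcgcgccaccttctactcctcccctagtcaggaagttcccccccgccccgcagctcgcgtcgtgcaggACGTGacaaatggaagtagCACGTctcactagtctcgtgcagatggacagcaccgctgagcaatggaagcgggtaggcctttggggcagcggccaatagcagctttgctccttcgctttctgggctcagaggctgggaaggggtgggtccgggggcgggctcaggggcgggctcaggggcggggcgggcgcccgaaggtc
Ldha: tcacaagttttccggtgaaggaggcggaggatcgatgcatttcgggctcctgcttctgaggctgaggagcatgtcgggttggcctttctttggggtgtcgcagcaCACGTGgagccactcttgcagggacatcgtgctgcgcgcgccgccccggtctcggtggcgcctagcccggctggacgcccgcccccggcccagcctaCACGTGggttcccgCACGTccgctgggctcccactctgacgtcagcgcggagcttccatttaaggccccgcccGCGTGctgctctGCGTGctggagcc
Egln1: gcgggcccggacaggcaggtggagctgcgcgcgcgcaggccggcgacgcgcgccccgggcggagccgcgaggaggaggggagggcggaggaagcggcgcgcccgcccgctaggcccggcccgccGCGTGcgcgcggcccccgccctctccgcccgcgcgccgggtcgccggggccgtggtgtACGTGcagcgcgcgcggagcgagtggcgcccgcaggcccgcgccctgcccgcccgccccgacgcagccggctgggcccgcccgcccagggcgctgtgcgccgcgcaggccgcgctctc
Vegfa: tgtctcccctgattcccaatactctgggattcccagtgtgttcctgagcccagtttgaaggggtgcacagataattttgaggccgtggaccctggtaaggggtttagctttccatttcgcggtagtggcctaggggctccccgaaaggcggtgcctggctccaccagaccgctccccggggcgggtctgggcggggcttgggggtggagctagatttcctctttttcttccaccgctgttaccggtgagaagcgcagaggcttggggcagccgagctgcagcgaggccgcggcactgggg
The Ldha window held 7 matches, the Slc2a1, Pgk1 and Egln1 windows 2 each. The Vegfa window held none, which says only that these letters are not in these 300 bases.

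Most of the 37 genes were expressed in all 4 populations, but the leading gene of several enzyme families differed between them. Levels of different genes are compared as CPM per kb of exon. In neutrophils the highest was the lactate exporter Slc16a3 (MCT4) at 668 ± 452 CPM per kb (n = 4), then Pkm, pyruvate kinase, at 298 ± 94.9 and Aldoa, aldolase A, at 146 ± 48.6. In Ly6Chi and Ly6Clo macrophages Pkm was highest, at 155.5 ± 36.4 and 87.9 ± 8.34 CPM per kb. In DBA-sorted cells Epas1 was highest, at 164 ± 38.7 CPM per kb, ahead of Pkm at 65.9 ± 13.8 and Ldha at 54.6 ± 13.2, and Pkm and Ldha did not differ beyond their spread. Eno2, the enolase of neurons, and P4ha2, a collagen prolyl hydroxylase, averaged under 1 CPM per kb in each leukocyte population.

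**Figure D1:**
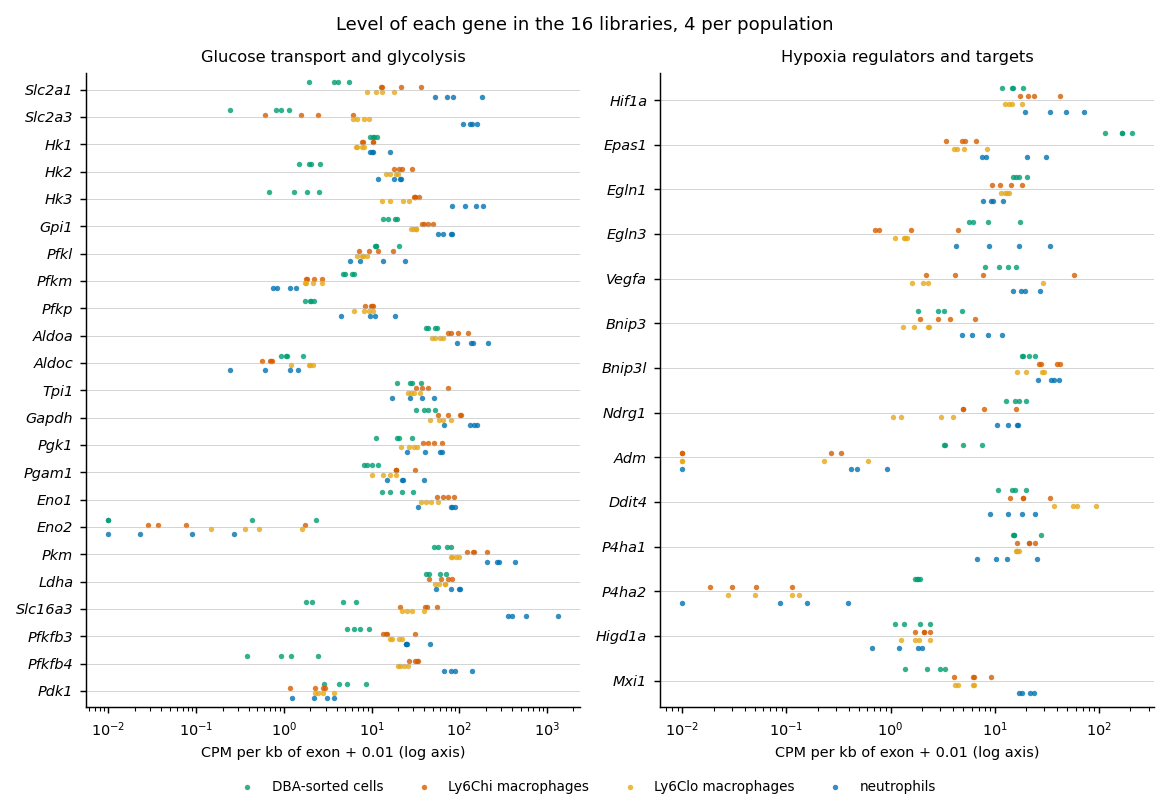
Level of the 37 genes in the 16 libraries as CPM per kb of exon plus 0.01 on a log axis, with 1 point per library and colours for the 4 populations. Neutrophils stand highest for Slc16a3, Slc2a3 and Hk3, and DBA-sorted cells for Epas1, Adm and P4ha2.

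Hexokinase, the enzyme that traps glucose in the cell, was mainly Hk1 in DBA-sorted cells (74.8 ± 6.76% of the 3 hexokinases per kb) and mainly Hk3, the myeloid form, in neutrophils (81.1 ± 5.72%). Macrophages held both Hk3 (50.5 ± 3.22% in Ly6Chi, 43.5 ± 5.53% in Ly6Clo) and Hk2 (35.2 ± 3.1% and 39.6 ± 3.61%). The 4 libraries of neutrophils did not overlap those of any other population in their Hk3 share. Of the 2 glucose transporters, Slc2a3 (GLUT3) made up 60.2 ± 9.5% in neutrophils, 38.1 ± 8.58% in Ly6Clo and 11.5 ± 8.69% in Ly6Chi macrophages. Phosphofructokinase was led by the liver form Pfkl in DBA-sorted cells (63.4 ± 6.18%), while in leukocytes Pfkl and the platelet form Pfkp were close. On average Pfkl made up 47.9% of the 3 forms in Ly6Chi, 42.5% in Ly6Clo and 49.7% in neutrophil libraries, and Pfkp 42.9, 46.2 and 44.8%, and in each population they differed by less than the larger SD. Pfkfb4 and Pfkfb3 make the activator of phosphofructokinase. Pfkfb4 was 75.6 ± 2.2% of the pair in neutrophils and Pfkfb3 84.6 ± 11.9% in DBA-sorted cells.

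Among regulators, Epas1 was 91.4 ± 2.16% of the HIF alpha pair in DBA-sorted cells. Hif1a was 82.1 ± 8.23% in Ly6Chi and 73.0 ± 9.2% in Ly6Clo macrophages, and 70.0 ± 22.6% in neutrophils. The neutrophil share spread from 38.4% in the BALB/c wild type library to 90.5% in the BALB/c Ift88Orpk library. Egln3 (PHD3) was 55.3 ± 17.9% of the prolyl hydroxylase pair in neutrophils and 9.29 to 33.8% on average elsewhere. Aldoa, Eno1 and P4ha1 each held at least 87.4% of their pair in every library.

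**Figure D2:**
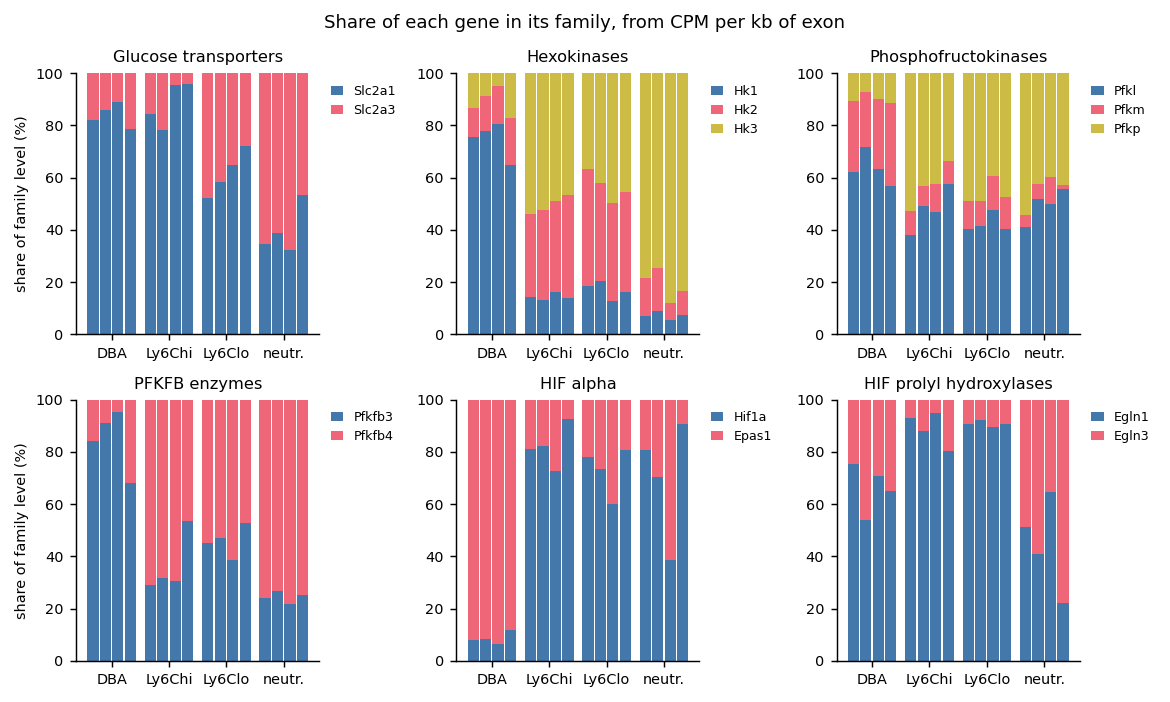
Share of each gene in its family (%), from CPM per kb of exon, with 1 stacked bar per library. Within a population the bars are C57BL/6 wild type, C57BL/6 Ift88Orpk, BALB/c wild type and BALB/c Ift88Orpk from left to right, and the Epas1 share of DBA-sorted cells lies between 88.4 and 93.5%.

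Ly6Chi macrophages held higher levels of most steps of glycolysis than Ly6Clo macrophages, and lower levels of 3 of the 37 genes. Of 35 genes tested, 17 were called higher, against a background of 12.3% of all 16664 genes tested, and 3 lower, against 12.2% (edgeR quasi-likelihood test with strain and genotype combination as a block, Benjamini-Hochberg adjusted p under 0.05). Among the 23 glycolysis genes 13 rose and 2 fell. Among the 12 hypoxia genes tested 4 rose and 1 fell. Adm and P4ha2 did not pass the filter on low counts. The median log2 fold change was 0.41 over the 35 genes and -0.01 over all genes.

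The 13 risers ran from glucose uptake to pyruvate: Slc2a1, Hk2, Hk3, Gpi1, Pfkl, Aldoa, Tpi1, Gapdh, Pgk1, Pgam1, Eno1, Pkm and the regulator Pfkfb4, by 0.35 to 0.80 on the log2 scale. Values are given for C57BL/6 wild type, C57BL/6 Ift88Orpk, BALB/c wild type and BALB/c Ift88Orpk, in that order here and below. Pgk1 was at 99.3, 115, 86.3 and 141 CPM in Ly6Chi and at 59.7, 67.8, 48.9 and 74.3 CPM in Ly6Clo macrophages. Pkm was at 610, 725, 740 and 1036 CPM against 399, 456, 412 and 490 CPM. The groups did not overlap for either gene. The log2 fold changes were 0.80 ± 0.08 (± SE, adjusted p = 0.000242) for Pgk1 and 0.79 ± 0.09 (adjusted p = 0.000434) for Pkm. Ldha did not follow, with a log2 fold change of 0.05 ± 0.09 (adjusted p = 0.763). The 3 genes that fell were the transporter Slc2a3, the brain aldolase Aldoc and Ddit4 (REDD1), an inhibitor of mTORC1 induced by hypoxia and stress. Slc2a3 was at 17.8, 44.1, 4.31 and 11.3 CPM in Ly6Chi against 58.6, 68.3, 44.6 and 49.3 CPM in Ly6Clo, with a log2 fold change of -1.91 ± 0.36 (adjusted p = 0.00582). The transcripts of Slc2a3 share stretches of at least 150 bases at 95% identity or more with 60 other genes. Those of them in the count table summed to 729266 counts over the 16 libraries, against 57292 for Slc2a3, so its values are less certain. Ddit4 was at 59.9, 32.7, 32.6 and 24.4 CPM against 164, 100, 109 and 64.8 CPM (-1.57 ± 0.09, adjusted p = 2.54e-05). Neither gene's groups overlapped.

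In the hypoxia list Ndrg1, a stress-response gene and HIF target, rose most. It was at 33.0, 33.0, 51.9 and 106 CPM in Ly6Chi and at 6.95, 8.24, 20.2 and 26.0 CPM in Ly6Clo macrophages (1.88 ± 0.15, adjusted p = 9.43e-05), and the groups did not overlap. Hif1a rose by 0.75 ± 0.12 (adjusted p = 0.00287), Bnip3l, a mitophagy receptor, by 0.53 ± 0.08 (adjusted p = 0.00178) and Vegfa by 1.07 ± 0.20 (adjusted p = 0.00545). For Hif1a, Bnip3l and Vegfa the groups overlapped, though the Ly6Chi library was the higher one in all 4 combinations of strain and genotype. Ly6Clo libraries also held more T and NK cell markers (692 ± 349 against 69.7 ± 71.6 CPM) and dendritic cell markers (557 ± 189 against 59.1 ± 35.8 CPM), and the part of these cells in the differences was not tested. Without the block the count fell from 20 to 7 (Pgk1, Pkm, Aldoa, Gpi1, Pfkfb4, Aldoc and Ddit4), and with all 16 libraries in the fit to 8. Without the block the log2 fold change of Vegfa was 1.01 (adjusted p = 0.694).

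Of neighbouring pathways, 5 of 7 pentose phosphate genes were called higher in Ly6Chi and none lower. These included Pgd (1.04 ± 0.08, adjusted p = 8.38e-05) and G6pdx (0.76 ± 0.08, adjusted p = 0.00029), which make NADPH. Of 24 further HIF targets tested 6 rose and 3 fell, with Bhlhe40, a repressor of the clock family, down by 1.16 ± 0.08 on the log2 scale (adjusted p = 5.4e-05). Of 13 genes of pyruvate entry into mitochondria 4 rose and none fell, and of 6 gluconeogenesis genes tested none was called. Of 12 HIF pathway regulators 3 rose and none fell, and of 18 liver and muscle isoforms and other sugar-handling genes 3 rose and 1 fell. Ldhb, the heart subunit of lactate dehydrogenase, led that list (2.15 ± 0.24, adjusted p = 0.00049), at 15.6, 19.3, 24.3 and 27.6 CPM in Ly6Chi against 2.92, 3.83, 3.71 and 11.4 CPM in Ly6Clo macrophages, without overlap.

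Neutrophils held higher levels of the glucose and lactate transporters, of Hk3 and of the HIF targets Egln3 and Mxi1 than macrophages. Of 36 genes tested 21 were called higher, against a background of 27.7% of 17524 genes, and 3 lower, against 30.7%. These were 13 higher and 1 lower of 23 glycolysis genes, and 8 higher and 2 lower of 13 hypoxia genes tested. The median log2 fold change was 0.57 over the genes tested and -0.15 over all genes. Adm was not tested.

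Slc2a3 was at 999, 963, 790 and 1150 CPM in neutrophils and at 4.31, 44.3 and 68.3 CPM (lowest, median and highest of 8 libraries) in macrophages. Slc16a3 was at 1921, 2147, 3059 and 7085 CPM against 113, 183 and 295 CPM. Slc2a1 was at 257, 294, 183 and 641 CPM against 31.1, 46.2 and 128 CPM. Every neutrophil library lay above every macrophage library for these 3 transporters. The log2 fold changes were 5.09 ± 0.33 (adjusted p = 3.48e-07), 4.22 ± 0.31 (adjusted p = 9.91e-07) and 2.51 ± 0.14 (adjusted p = 1.09e-07). Hk3 was at 428, 304, 569 and 680 CPM against 48.2, 104 and 128 CPM (2.39 ± 0.15, adjusted p = 2.22e-07), also without overlap. Pfkfb4 rose by 1.79 ± 0.15 (adjusted p = 2.91e-06), Pkm by 1.32 ± 0.12 (adjusted p = 3.61e-06), Gpi1 by 0.98 ± 0.12 and Aldoa by 0.96 ± 0.11. Gapdh (0.76 ± 0.12), Pfkfb3 (0.66 ± 0.13), Hk1 (0.48 ± 0.12) and Pgam1 (0.44 ± 0.15) rose as well. Ldha rose by 0.38 ± 0.10 (adjusted p = 0.00756), while Pgk1 (0.29 ± 0.12, adjusted p = 0.0567), Eno1 (0.28 ± 0.14) and Tpi1 (-0.23 ± 0.15) did not pass the threshold. Pfkm, the muscle phosphofructokinase, fell by 0.996 ± 0.279 (adjusted p = 0.00984). Its exons overlap those of Gm26513 and Senp1, which summed to 19150 counts over the 16 libraries against 2823 for Pfkm, so its values are less certain.

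In the hypoxia list Egln3, a hydroxylase that is itself a HIF target, was at 23.5, 45.8, 11.4 and 90.2 CPM in neutrophils and at 1.86, 3.57 and 11.8 CPM in macrophages. The BALB/c wild type neutrophil library overlapped the highest macrophage library. The log2 fold change was 3.15 ± 0.34 (adjusted p = 1.69e-05). Mxi1, a MYC antagonist induced by HIF, was at 162, 125, 116 and 148 CPM against 27.8, 42.5 and 62.4 CPM (1.83 ± 0.14, adjusted p = 1.53e-06), without overlap. Ndrg1 (1.92 ± 0.26), Bnip3 (1.54 ± 0.23), Hif1a (1.05 ± 0.16) and Bnip3l (0.33 ± 0.11) rose too, with overlap between the groups for each. Vegfa was at 76.1, 83.5, 64.6 and 116.5 CPM in neutrophils and at 6.89, 13.85 and 248 CPM in macrophages. Both BALB/c Ift88Orpk macrophage libraries (248 and 125 CPM) lay above the neutrophil library of that combination. Vegfa rose by 2.04 ± 0.46 (adjusted p = 0.0027), but without the block its log2 fold change was 0.64 (adjusted p = 0.56). Ddit4 fell by 1.10 ± 0.29 (adjusted p = 0.0068) and P4ha1 by 0.54 ± 0.21 (adjusted p = 0.0422), the latter lost under 8 of the alternatives run. Epas1 rose by 1.53 ± 0.21 (adjusted p = 9.24e-05), with 45.6, 114, 174 and 41.9 CPM in neutrophils and 19.0, 27.6 and 46.6 CPM in macrophages. Endothelial markers summed to 675, 1717, 2799 and 667 CPM in the same neutrophil libraries and to between 556 and 903 CPM in macrophages, and their part in the Epas1 difference was not tested. Among further genes of glucose handling 6 of 18 rose and 4 fell, led by the lysosomal transporter Slc2a6 (3.12 ± 0.23, adjusted p = 1.04e-06) and the ADP-dependent glucokinase Adpgk (2.13 ± 0.23, adjusted p = 1.95e-05). Of 13 genes of pyruvate entry 8 fell and 1, Pdk4, rose. Of 25 further HIF targets 7 rose and 1 fell, of 13 HIF pathway regulators 5 rose and 4 fell, of 7 pentose phosphate genes 3 rose and 2 fell, and of 6 gluconeogenesis genes 4 rose and 2 fell. Kupffer cell markers (1491 ± 369 CPM) and hepatocyte markers (3185 ± 1259 CPM) were also present in the neutrophil libraries, and their part in these differences was not tested. Slc40a1 made up most of the Kupffer sum in each of these libraries, at 990, 943, 1318 and 1102 CPM. Clec4f was at 90.5, 166, 360 and 68.8 CPM.

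DBA-sorted cells held more Epas1 than leukocytes and lower levels of 16 of the 23 glycolysis genes. Of the 37 genes 8 were called higher than in leukocytes, against a background of 31.1% of 19183 genes, and 20 lower, against 28.4%. Of 23 glycolysis genes 2 rose (Pfkm and Pdk1) and 16 fell, and of 14 hypoxia genes 6 rose and 4 fell. The median log2 fold change was -0.51 over the 37 genes and 0.02 over all genes.

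Epas1 was at 936, 1162, 942 and 636 CPM in DBA-sorted cells and at 19.0, 33.2 and 174 CPM (lowest, median and highest of 12 libraries) in leukocytes. It rose by 4.52 ± 0.19 (adjusted p = 3.72e-10). Adm, the vasodilator peptide adrenomedullin, was at 5.25, 12.1, 7.99 and 5.42 CPM against 0, 0.385 and 1.48 CPM (5.09 ± 0.71, adjusted p = 2.32e-05), a fitted value that rests on leukocyte libraries at or near 0. P4ha2 was at 11.1, 10.7, 11.3 and 12.02 CPM against 0, 0.364 and 2.38 CPM (4.80 ± 0.57, adjusted p = 4.62e-06). For these 3 genes no leukocyte library reached the DBA-sorted range. Egln3 (1.63 ± 0.34), Ndrg1 (1.503 ± 0.273) and Egln1 (0.56 ± 0.14) also rose against the mean of the leukocyte populations, with overlap between the groups for each. Egln3 averaged 25.2 CPM in DBA-sorted cells, below its 42.7 CPM in neutrophils and above its 4.22 CPM in macrophages. Ndrg1 was at 84.6 to 133 CPM in DBA-sorted cells and at 69.5 to 110 CPM in neutrophils. Pdk1, a kinase that inhibits pyruvate dehydrogenase, rose by 1.01 ± 0.17 (adjusted p = 0.000142). Pfkm, with the overlap described above, rose by 1.74 ± 0.19 (adjusted p = 2.34e-06).

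The largest falls were in Pfkfb4 (-5.13 ± 0.39), Hk3 (-4.80 ± 0.32), Slc16a3 (-4.72 ± 0.41), Slc2a3 (-4.21 ± 0.42), Hk2 (-3.26 ± 0.19), Slc2a1 (-2.88 ± 0.23) and Pfkp (-2.22 ± 0.20), with adjusted p of 9.26e-07 or less. Hk2, the inducible hexokinase, was at 8.84, 11.99, 11.4 and 15.5 CPM against 70.5, 116.5 and 175 CPM. Slc2a1 was at 13.2, 19.4, 6.73 and 14.7 CPM against 31.1, 69.5 and 641 CPM. The groups did not overlap for either gene. The other genes that fell were Mxi1 (-1.86 ± 0.17), Eno1 (-1.62 ± 0.17), Pfkfb3 (-1.55 ± 0.22), Gpi1 (-1.43 ± 0.13), Pkm (-1.24 ± 0.17), Gapdh and Pgk1 (both -1.01), Pgam1 (-0.98 ± 0.16), Aldoa (-0.89 ± 0.12), Ddit4 (-0.84 ± 0.27), Hif1a (-0.68 ± 0.18), Bnip3l (-0.51 ± 0.12) and Ldha (-0.35 ± 0.12). Hk1, Pfkl, Tpi1, Vegfa and Bnip3 were among the 9 that did not pass the threshold. Slc16a3 (9.39 to 34.9 CPM), Hk3 (2.46 to 9.33 CPM), Pfkfb4 (1.81 to 11.9 CPM) and Slc2a3 (1.71 to 8.15 CPM) were each highest in the BALB/c Ift88Orpk library. That library also held the most neutrophil markers (197 CPM, against 8.29 to 23.7 CPM in the other 3) and Ly6Chi monocyte markers (1232 against 278 to 486 CPM), and their part in these levels was not tested. Of the pentose phosphate genes 6 of 7 fell. Of 28 further HIF targets 14 rose and 5 fell, of 13 HIF pathway regulators 1 rose and 4 fell, of 13 pyruvate entry genes 3 rose and 2 fell, of 19 isoforms and other sugar-handling genes 9 rose and 4 fell, and of 6 gluconeogenesis genes 5 rose. The liver hexose transporter Slc2a2 (2.84 ± 0.26, adjusted p = 4.11e-07) and the gluconeogenic Pck1 (1.66 ± 0.26, adjusted p = 6.5e-05) rose, and hepatocyte markers summed to 2053 to 4094 CPM in these libraries.

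**Figure D3:**
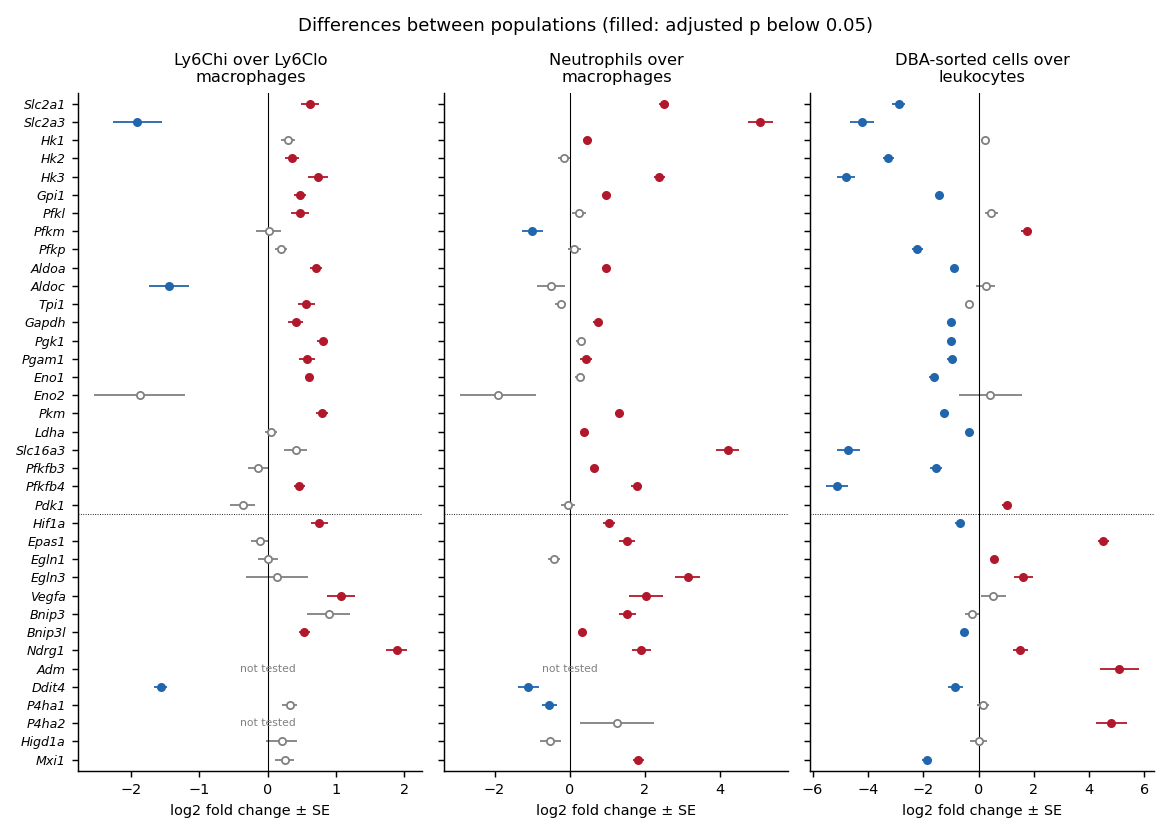
Log2 fold change with its SE of each gene in 3 comparisons of populations, filled where the adjusted p is below 0.05 (red higher, blue lower), with a dotted line between the glycolysis and hypoxia lists. Slc2a3 reaches 5.09 in neutrophils over macrophages and Pfkfb4 -5.13 in DBA-sorted cells over leukocytes.

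In Ift88Orpk cells most of the 37 genes were measured at higher levels than in wild type, with no gene of any kind passing the test. With 1 library per group, the 2 strains stood as replicates of the genotype comparison and all 16 libraries shared 1 estimate of the spread. For the mean of the 4 populations 0% of 21534 genes were called by edgeR's quasi-likelihood test, and 0% in each population taken alone. Over that mean 34 of 37 genes had a positive log2 fold change, with a median of 0.38, against 56.0% of all genes with a median of 0.05. All 23 glycolysis genes were positive (median 0.48), as were 11 of 14 hypoxia genes (median 0.30). An unadjusted p under 0.05 was reached by 17 of the 37 genes, and by 7.09% of all genes. Because the 37 genes were chosen with earlier results of these data known, shares beside those of all genes are description only. The lowest adjusted p was 0.287, for Pgk1. DESeq2 called 1.10% of all genes and 9 of the 37, each higher in Ift88Orpk: Slc16a3, Vegfa, Pgk1, Slc2a1, Egln3, Pfkl, Ldha, Gapdh and Pdk1, with adjusted p of 0.00468 to 0.0458. Leaving out each library in turn gave 32 to 35 positive genes, a median of 0.30 to 0.51 and 13 to 26 genes with an unadjusted p under 0.05. The lowest median, 0.30, came without either library of the BALB/c neutrophil pair. The number of such genes was lowest, and the same, without either library of the BALB/c Ly6Chi pair.

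By population, unadjusted p under 0.05 was reached by 5 of the 37 genes in DBA-sorted cells (5.29% of all genes), 9 in Ly6Chi cells (1.89%), 2 in Ly6Clo cells (1.62%) and 13 in neutrophils (4.34%). The median log2 fold change over the 37 genes was 0.39, 0.46, 0.22 and 0.56. DESeq2 called 1 of them in DBA-sorted cells, Slc16a3 (1.51 ± 0.37, adjusted p = 0.0151; edgeR 1.55 ± 0.34, adjusted p = 0.547), against 0.385% of all genes. It called none of them in Ly6Chi macrophages (0.0139% of all genes), Ly6Clo macrophages (0.0511%) and neutrophils (0.121%).

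The 8 pairs of single libraries, each of 1 strain and population, show the direction directly, with no test. Of the 37 genes 9 were higher in Ift88Orpk in all 8 pairs, against 1.08% of all genes: Slc2a1, Pfkp, Aldoa, Tpi1, Gapdh, Pgk1, Ldha, Egln1 and Vegfa. In the 6 leukocyte pairs 12 were higher throughout, against 2.87%, with Pfkl, Pgam1 and Pkm added. None was lower in all 8 pairs, against 0.567%, or in all 6, against 1.97%. With relative log expression factors Aldoa was not among them, and with library totals alone Egln1 was not, while Slc2a3 and Eno1 were. Libraries of 1 strain and genotype may come from the same mice, so these are not 8 independent comparisons. Gapdh shares stretches of at least 150 bases at 95% identity or more with 148 other genes, and those in the count table summed to 20243 counts against 90674 for Gapdh. Pgk1 lies on the X chromosome. It was higher in Ift88Orpk in the 4 C57BL/6 pairs, where Xist was lower. It was also higher in the 3 BALB/c pairs where Xist was higher, with ratios of 1.82, 1.64 and 1.52 in DBA-sorted cells, Ly6Chi and Ly6Clo macrophages. The part of the sex balance in the Pgk1 ratios was not tested.

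A ratio of at least 1.5 (CPM plus 1) was most frequent in the BALB/c neutrophil pair, where 25 of the 37 genes passed it upward against 19.2% of all genes. With library totals alone 17 passed it there, against 9.04%. The Ift88Orpk library of this pair had the lowest scaling factor of the 16 (0.62). From wild type to Ift88Orpk its neutrophil markers went from 19800 to 30480 CPM, and its Ly6Chi monocyte markers from 2781 to 4720 CPM. Hepatocyte markers went from 4948 to 2329 CPM and endothelial markers from 2799 to 667 CPM, and the part of these shifts in the ratios was not tested. In BALB/c Ly6Chi macrophages 21 passed it against 9.32%. The C57BL/6 pairs had fewer, with 6 in neutrophils against 17.0% and 5 in Ly6Chi macrophages against 6.97%. In Ly6Clo macrophages 6 passed it in BALB/c against 10%, and 2 in C57BL/6 against 8.12%. In DBA-sorted cells 12 passed it in BALB/c against 22.7%, and 10 in C57BL/6 against 12.1%. In C57BL/6 Ly6Clo macrophages and in C57BL/6 neutrophils the share was close to that of all genes. With library totals alone 11 of the 37 passed it in C57BL/6 neutrophils, against 19.0%.

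**Figure D4:**
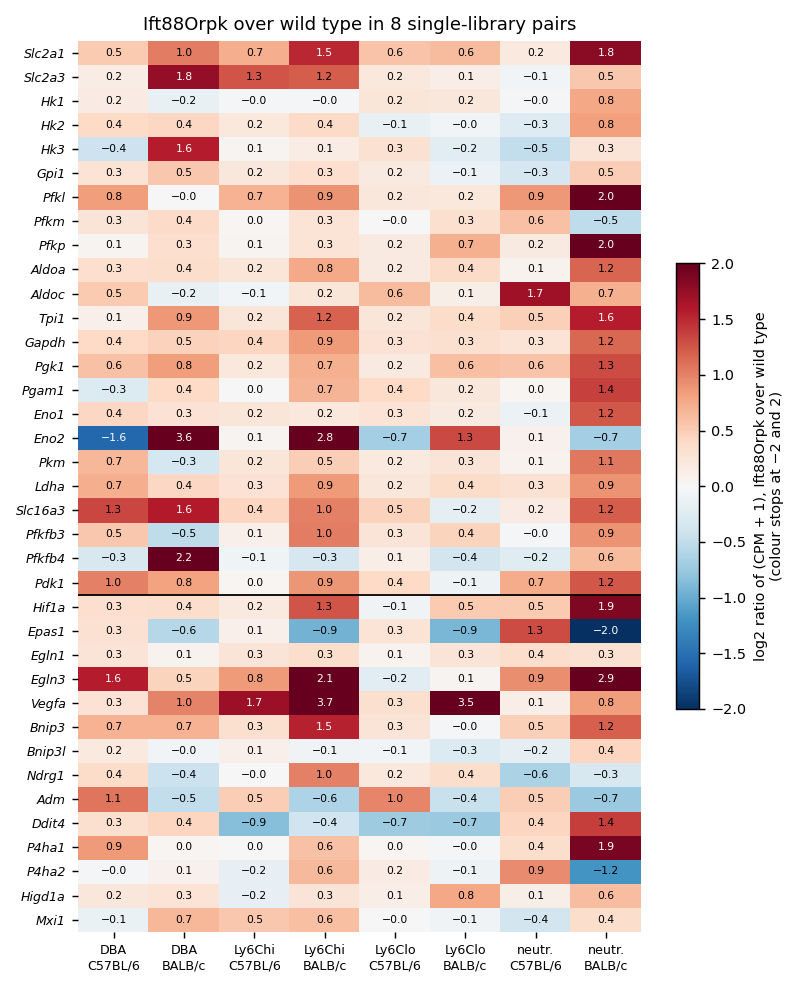
Log2 ratio of CPM plus 1, Ift88Orpk over wild type, for the 37 genes (rows, glycolysis above the line) in 8 pairs of single libraries (columns). Red marks a higher level in Ift88Orpk, and Vegfa reaches 3.72 and 3.55 in the Ly6Chi and Ly6Clo macrophages of BALB/c.

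Vegfa had the highest mean log2 ratio over the 8 pairs, 1.44. In wild type and Ift88Orpk it was at 17.9 and 248 CPM in BALB/c Ly6Chi macrophages (a ratio of 13.8, with 12.4 to 15.5 as the 95% counting interval). In BALB/c Ly6Clo macrophages it was at 9.77 and 125 CPM (12.8, 11.1 to 14.9). In C57BL/6 it was at 9.38 and 32.9 CPM in Ly6Chi (3.51, 2.87 to 4.32) and at 6.89 and 8.80 CPM in Ly6Clo macrophages (1.28, 1.03 to 1.59). The 2 BALB/c macrophage ratios were the largest of the 8 pairs. In neutrophils and DBA-sorted cells the ratios lay between 1.10 and 2.01. Counting intervals cover the sampling of reads only. In the same BALB/c macrophage libraries hepatocyte markers were lower in Ift88Orpk (1730 and 533 CPM in Ly6Chi, 1589 and 429 CPM in Ly6Clo), endothelial markers lower (653 and 585, 903 and 610 CPM) and stellate cell and fibroblast markers near their wild type level (71.6 and 78.9, 85.0 and 88.7 CPM). Kupffer cell, dendritic cell, B cell, Ly6Clo monocyte and erythroid markers were lower too. Other lists were higher, namely T and NK cell markers (6.47 and 9.32 CPM in Ly6Chi, 171 and 828 CPM in Ly6Clo), Ly6Chi monocyte markers (8278 and 9010, 1462 and 2582 CPM) and cholangiocyte markers (56.5 and 76.9, 31.0 and 68.4 CPM). Most of the cholangiocyte rise was in Spp1, at 42.3 and 58.1 CPM in Ly6Chi and 11.75 and 50.5 CPM in Ly6Clo macrophages. The other cholangiocyte markers moved both ways, with Krt7 lower in both (5.73 and 2.96, 11.55 and 5.84 CPM). Neutrophil markers were at 561 and 617 CPM in Ly6Chi and at 1858 and 832 CPM in Ly6Clo macrophages. The part of these shifts in the Vegfa ratios was not tested. The fitted genotype difference in BALB/c exceeded that in C57BL/6 by 1.65 ± 0.43 on the log2 scale (edgeR, adjusted p = 0.491; DESeq2 1.69 ± 0.48, adjusted p = 0.0245).

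Slc2a1 was next among transporters, with a mean log2 ratio of 0.87. In wild type and Ift88Orpk it was at 13.2 and 19.4 CPM in C57BL/6 DBA-sorted cells, and at 6.73 and 14.7 CPM in BALB/c. It was at 46.0 and 76.8 CPM in C57BL/6 and 44.4 and 128 CPM in BALB/c Ly6Chi macrophages, and at 31.1 and 46.5 CPM and 39.6 and 62.3 CPM in Ly6Clo macrophages. In neutrophils it was at 257 and 294 CPM in C57BL/6 and at 183 and 641 CPM in BALB/c. Ratios ranged from 1.15 in C57BL/6 neutrophils to 3.5 in BALB/c neutrophils, and the mean genotype coefficient was 0.90 ± 0.19 (adjusted p = 0.323; DESeq2 adjusted p = 0.0113). Slc16a3 was higher in 7 of 8 pairs (mean coefficient 0.77 ± 0.16, adjusted p = 0.326), with ratios of 2.69 and 3.18 in DBA-sorted cells, at the low levels given above. In the same DBA-sorted pairs the sum of stellate cell and fibroblast markers was higher in Ift88Orpk. It reached 4271 CPM in C57BL/6 and went from 1978 to 9810 CPM in BALB/c. Most of the C57BL/6 rise was in the collagen genes Col1a1 (714.5 and 1535 CPM), Col1a2 (612 and 1113 CPM) and Col3a1 (525 and 1301 CPM). Pdgfrb and Acta2 were also higher there, and each other marker was lower, with Reln at 37.2 and 15.3 CPM. In BALB/c only Reln, Colec11 and Ecm1 were lower. The part of these shifts in the genotype ratios of DBA-sorted cells was not tested. Slc2a3, with the copies described above, was higher in 7 of 8 pairs, with a mean log2 ratio of 0.65.

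Egln3, the hydroxylase that feeds back on HIF, had a mean log2 ratio of 1.08. It was at 11.4 and 90.2 CPM in BALB/c neutrophils (ratio 7.95, 6.83 to 9.29). In Ly6Chi macrophages of BALB/c its values were 2.05 and 11.8 CPM (5.77, 4.06 to 8.37). In C57BL/6 it was at 23.5 and 45.8 CPM in neutrophils and at 15.02 and 46.5 CPM in DBA-sorted cells. Ly6Clo macrophages stood out, with ratios of 0.828 (0.597 to 1.16) and 1.05 (0.762 to 1.46) whose counting intervals include 1. Pfkl was higher in all 6 leukocyte pairs, most in BALB/c neutrophils at 38.0 and 159 CPM, while in BALB/c DBA-sorted cells it was at 74.6 and 73.9 CPM. Bnip3, a mitophagy receptor, Hif1a and P4ha1 were each higher in 7 of 8 pairs.

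At the other end, Epas1 had the lowest mean log2 ratio, -0.31. It was higher in Ift88Orpk in all 4 C57BL/6 pairs, at 936 and 1162, 27.1 and 29.0, 22.9 and 28.0, and 45.6 and 114 CPM in DBA-sorted cells, Ly6Chi macrophages, Ly6Clo macrophages and neutrophils. It was lower in all 4 BALB/c pairs, at 942 and 636, 37.3 and 19.0, 46.6 and 24.2, and 174 and 41.9 CPM. The endothelial marker sum moved the same way in all 8 pairs, for example from 675 to 1717 CPM in C57BL/6 and from 2799 to 667 CPM in BALB/c neutrophils. Per 1000 CPM of these markers Epas1 was at 62.2 to 67.5 CPM in the 4 neutrophil libraries and at 50.8 to 65.8 CPM in the 4 DBA-sorted libraries. In BALB/c macrophages it went from 57.1 to 32.4 in Ly6Chi and from 51.6 to 39.7 in Ly6Clo cells. These macrophage values depend on Fcgr2b, the largest part of the sum there. It was higher in Ift88Orpk (323 and 448 CPM in Ly6Chi, 248 and 367 CPM in Ly6Clo cells). Pecam1 was at 21.6 and 24.0 CPM and at 78.0 and 73.9 CPM. Each other marker was lower in Ift88Orpk, with Stab2 at 85.6 and 27.9 CPM and at 148 and 35.8 CPM. The strain difference of the genotype effect was -1.63 ± 0.42 (edgeR, adjusted p = 0.474; DESeq2 -1.60 ± 0.43, adjusted p = 0.0115).

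Ddit4 differed in direction between populations. In wild type and Ift88Orpk it was at 59.9 and 32.7 CPM in C57BL/6 and 32.6 and 24.4 CPM in BALB/c Ly6Chi macrophages, and at 164 and 100 CPM and 109 and 64.8 CPM in Ly6Clo macrophages. In neutrophils it was at 23.8 and 32.2 CPM in C57BL/6 and 15.7 and 42.5 CPM in BALB/c, and in DBA-sorted cells at 27.8 and 34.9 CPM and 19.0 and 25.9 CPM. It was thus lower in all 4 macrophage pairs and higher in the other 4. The test of equal genotype effects in the 4 populations gave an unadjusted p of 0.00467 for Ddit4 and an adjusted p of 1. Ddit4 was the 1 gene of 37 under 0.05 in that test, where 1.80% of all genes were and 0% were called. Bnip3l (mean log2 ratio 0.01), P4ha2 (0.04), Ndrg1 (0.07) and Adm (0.10) had no common direction. Adm was at or below 1.48 CPM in every leukocyte library.

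Between strains the log2 genotype differences of the 37 genes were more positive in BALB/c than in C57BL/6 for 31 genes, with a median difference of 0.34 against 0.03 over all genes. Again 0% of genes were called by edgeR, 8 of the 37 had an unadjusted p under 0.05 against 5.58% of all genes, and DESeq2 called Vegfa and Epas1, against 1.05% of all genes. Xist moved in opposite directions in the 2 strains in DBA-sorted cells and in both macrophage populations, and the part of the sex balance in these differences was not tested. Whichever neutrophil library was left out, the median was 0.17. The number of genes with an unadjusted p under 0.05 was also lowest, and the same, in each of these fits. Apart from Vegfa and Epas1 the unadjusted values under 0.05 were those of Tpi1 (0.74 ± 0.22), Adm, Hif1a (0.77 ± 0.26), Slc2a1 (0.77 ± 0.27), Pgk1 (0.48 ± 0.19) and Pfkp (0.72 ± 0.29).

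**Figure D5:**
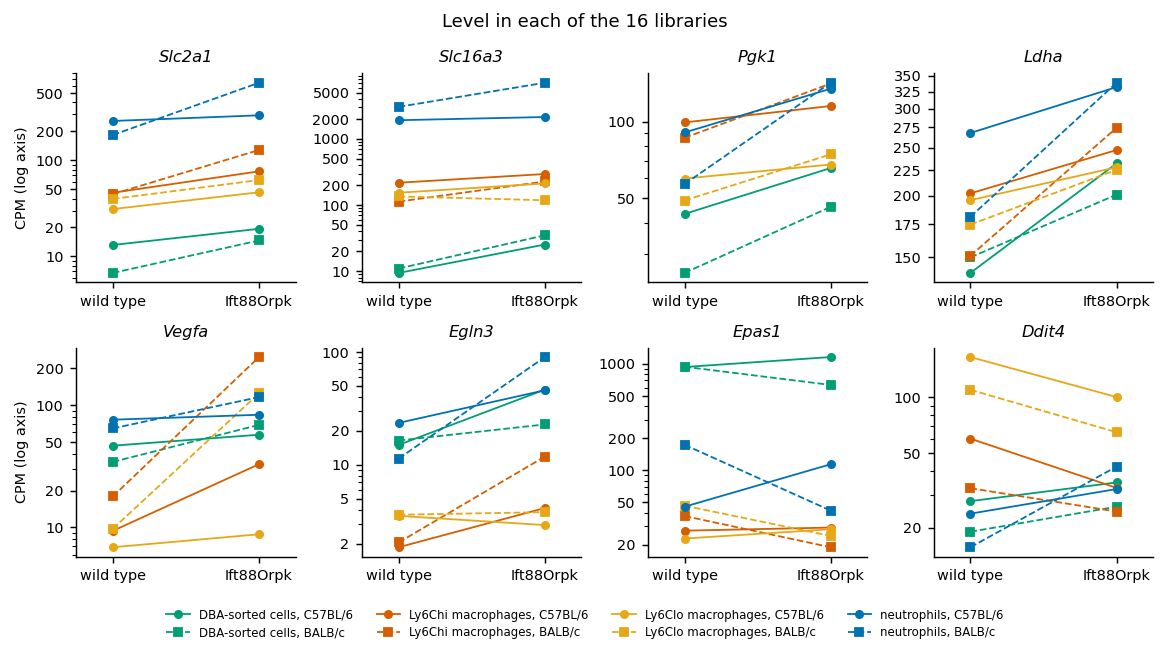
CPM on a log axis of 8 genes in wild type and Ift88Orpk libraries, with a line for each of the 8 pairs (solid and circles for C57BL/6, dashed and squares for BALB/c, colours for populations). Vegfa climbs from 17.9 to 248 CPM in BALB/c Ly6Chi macrophages, Epas1 lines part by strain and Ddit4 lines by population.

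Of pathway genes outside the 37, the mean genotype coefficient was positive for 26 of 29 further HIF targets tested (median 0.58) and for 8 of 13 genes of pyruvate entry (median 0.11). It was positive for 4 of 7 pentose phosphate genes (median 0.05), for 9 of 14 HIF pathway regulators (median 0.08), for 11 of 20 isoforms and other sugar-handling genes (median 0.09) and for 1 of 7 gluconeogenesis genes (median -0.28). Pck2, the mitochondrial enzyme that makes phosphoenolpyruvate, had the lowest adjusted p of these lists (-0.96 ± 0.13, adjusted p = 0.187). None of these genes was called by edgeR. Mif, a cytokine with a HIF response element, was higher in Ift88Orpk in all 8 pairs, at 13.3 and 34.4 CPM in BALB/c Ly6Chi macrophages for example (mean coefficient 0.78 ± 0.18, adjusted p = 0.331).

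No gene of the 37 passed the test between strains. In BALB/c against C57BL/6, 0 of the 37 genes were called in DBA-sorted cells (background 0.297%), Ly6Chi macrophages (0.334%), Ly6Clo macrophages (0.306%) and neutrophils (1.34%). Unadjusted p was under 0.05 for 3 (background 9.29%), 7 (7.98%), 4 (7.21%) and 2 genes (12.1%). DESeq2 called 2.26, 2.40, 1.83 and 4.31% of all genes in these 4 populations, and 0 of the 37 in DBA-sorted cells. It called Slc2a3 lower (-2.01 ± 0.46) and Ndrg1 higher (1.16 ± 0.36) in BALB/c Ly6Chi macrophages, Ndrg1 higher in Ly6Clo macrophages (1.61 ± 0.37) and Slc16a3 higher in neutrophils (1.29 ± 0.36). Ndrg1 was at 6.95 and 8.24 CPM in the C57BL/6 and at 20.2 and 26.0 CPM in the BALB/c libraries of Ly6Clo macrophages. Slc2a3 was at 17.8 and 44.1 CPM in C57BL/6 and at 4.31 and 11.3 CPM in BALB/c Ly6Chi macrophages.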

How the data were processed

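RNA from 16 pools of sorted liver cells was sequenced as 75-base paired reads after ribosomal RNA depletion, and RNA with an integrity number above 7 was used, per the labels' protocols. The authors aligned reads with STAR to the mouse genome (GRCm38.p4, per the submitters' processing notes) and deposited raw counts per gene made with HTSeq-count 0.9.1, per the labels. No source used here gives the STAR version, the annotation release or the strand setting, so genes that overlap on opposite strands, and near-identical copies, may share reads. The authors' normalized values and their own tests were not used here.

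The 5 summary lines of the counter were left out of library sizes, and 44.8 to 57.3% of counted read pairs were in genes. Counts were scaled with TMM factors. Populations were compared with edgeR 4.0.16 (quasi-likelihood test, filterByExpr, R 4.3.3, limma 3.58.1) blocked by the 4 combinations of strain and genotype. For genotype and strain a single model took all 16 libraries, with a baseline, a strain effect and a genotype effect in each population. P-values were Benjamini-Hochberg adjusted over all genes tested, with a threshold of 0.05, and SE is that of the log2 fold change. Since each group is 1 pool, no p-value measures the spread between pools of the same group. In population comparisons the spread is how far a population difference varied between the 4 combinations of strain and genotype. In genotype and strain comparisons it is how far the genotype difference varied between strains within populations. For the genotype difference between strains it is how far that difference varied between populations. Pairs of libraries are ratios of CPM plus 1, with exact binomial 95% counting intervals of the unadjusted ratio. Levels per kb use exon lengths of the GENCODE M21 annotation of GRCm38. Copies were searched with BLAST 2.17.0 (at least 150 bases at 95% identity). DESeq2 1.42.0, other scalings, other filters and leaving out libraries were the alternatives. Python 3.11.15, pandas 2.3.3, numpy 2.4.6, scipy 1.17.1 and matplotlib 3.10.9 made the tables and plots, and the fits were tested on simulated data.

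The 37 genes, the marker lists and the other pathway lists were chosen with earlier results of these data known. Named were the called genes of each population comparison, up to 12 in each direction within glycolysis and within hypoxia, and the 6 genes with the largest and the 6 with the smallest mean log2 ratio over the 8 pairs among those with at least 10 CPM in 1 library. From the other lists at most 4 genes were named, in order of adjusted p, except Mif and Pdk4, which were chosen after their values were seen. Values of 1 further HIF target are not reported here.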

Additional observations from a re-analysis of the deposited data

Results flagged for a closer look

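The genotype difference of Epas1 pointed one way in C57BL/6 and the other way in BALB/c, in every pair. The mean log2 ratio of Ift88Orpk over wild type was 0.498 over the 4 C57BL/6 pairs and -1.113 over the 4 BALB/c pairs, a difference of -1.611. In the fit of all libraries this difference had an adjusted p of 0.474 with edgeR and 0.0115 with DESeq2, and endothelial marker sums moved the same way in all 8 pairs. Adm split by strain in the same manner, with mean log2 ratios of 0.759 in C57BL/6 and -0.567 in BALB/c, a difference of -1.327 (edgeR adjusted p = 0.665), at levels of at most 1.48 CPM in leukocytes.

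Ddit4 was lower in Ift88Orpk in all 4 macrophage pairs, with a mean log2 ratio of -0.677. It was higher in both neutrophil pairs, with a mean of 0.899 and a difference from macrophages of 1.576, and in both pairs of DBA-sorted cells, with a mean of 0.374 and a difference of 1.050. The edgeR test of a common genotype effect in the 4 populations gave an unadjusted p of 0.00467 and an adjusted p of 1. The separate differences from macrophages were not tested.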

How the results depend on the processing

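Without the block of strain and genotype the number of the 37 genes called between Ly6Chi and Ly6Clo macrophages was 7 in place of 20, and with all 16 libraries in the fit 8. Other scalings, filters and DESeq2 kept all 20. Leaving out each combination gave 15 to 21 called genes there, 20 to 26 for neutrophils against macrophages and 26 to 30 for DBA-sorted cells against leukocytes. Without the block 5 of 24 calls were lost for neutrophils (Vegfa, Ldha, Pgam1, Bnip3l and P4ha1) and 1 of 28 for DBA-sorted cells (Ldha). DESeq2 called 9 genes for the mean genotype difference, 1 in DBA-sorted cells and 2 between strains of the genotype difference, where edgeR called 0. Between strains it called 2 in Ly6Chi cells, 1 in Ly6Clo cells and 1 in neutrophils, and a fit of the macrophage libraries alone called 1 in Ly6Chi and 2 in Ly6Clo macrophages. Leaving out each library gave 0 to 1 called genes between strains in Ly6Chi macrophages and in neutrophils, and 0 in the other genotype and strain comparisons. No direction turned under the alternatives run for the called genes. The cause of these changes was not tested. The block pairs populations within each combination of strain and genotype. The labels give no replicate numbers, so no fit blocked by such a number was run. With 1 pool per group and 4 residual degrees of freedom in the fit of all libraries, a genotype effect cannot be told apart from a difference between pools. Low genes (Adm, Eno2, P4ha2 in leukocytes) rest on few counts.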
